A study of Mus musculus with 8 samples.

Results

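Cells take up fat and cholesterol from lipoproteins, pass them on inside the cell and hand the surplus back to carriers outside, and 9 genes of this traffic are described here by the H3K4me3 they carried in mouse lung tumor cells. The 9 genes were taken by name, and every peak that the deposited H3K4me3 table assigns to them was used, which gave 23 of the 35486 peaks and 9 of the 20871 genes in the table. The members are Apoe, Lpl, Lrp1, Vldlr, Scarb1, Cd36, Fabp5, Abca1 and Abcg1.

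H3K4me3, the trimethylation of lysine on histone H3, lies mainly at the promoters of genes that are active or ready to be transcribed, so it reports on the state of a promoter and not on the amount of RNA or protein. Apolipoprotein E (Apoe) is the ligand on lipoprotein particles, lipoprotein lipase (Lpl) releases their fatty acids, and Lrp1 and Vldlr are related endocytic receptors that bind the ligand. Scarb1 and Cd36 are class B scavenger receptors, the first for HDL cholesterol and the second for fatty acids and oxidized lipoproteins, and Fabp5 carries fatty acids inside the cell. Abca1 and Abcg1 export cholesterol and phospholipid to apolipoprotein A-I and to HDL. In the lung, alveolar macrophages and type II cells handle large amounts of surfactant lipid and use many of these genes.

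The study compared 2 genotypes of an autochthonous lung tumor model. Both genotypes carried Lkb1fl/fl and a tumor-inducing allele that Cre recombinase switches on, and KLG4m/m mice also carried Gpx4m/m. In both, tumors were induced and Lkb1 (Stk11) was deleted after Ad-Cre, an adenovirus given through the nose, and both were treated with tamoxifen. The Gpx4m/m allele holds a Dre recombinase that Cre activates and tamoxifen releases, so that exons of Gpx4, which encodes the enzyme that reduces lipid hydroperoxides, are deleted in cells that have seen Cre. Ad-Cre is not restricted to a cell type. Tumor cells were sorted as CD45-CD31-EpCAM+ cells 10 weeks after Ad-Cre. Each genotype had 2 libraries, KL replicates 1 and 2 and KLG4m/m replicates 3 and 4. The study's legend gives 2 mice per group, while its protocol counts 3 mice in total, so that p-values are taken to measure the spread between these libraries. The mice were 8 to 10 weeks old when Ad-Cre was given and matched for sex, and the H3K27ac libraries were not analysed here.

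The libraries held 3244495 to 3463731 reads in peaks, and their scaling factors lay between 0.995 and 1.00. Levels are in CPM, reads per 1000000 reads in peaks after TMM scaling, and a difference is a log2 fold change of KLG4m/m over KL with its standard error (SE). The table's peaks are 400 bp wide with 1 exception, so CPM at single peaks can be set side by side. A peak or gene was called where edgeR's quasi-likelihood test gave an adjusted p (Benjamini-Hochberg over the whole table) under 0.05. Where the groups are said not to overlap, this describes the values and is not a test. How often the groups separate over the whole table was not counted. The Gpx4 peak lies at the start site, outside the deleted exons, and does not check the deletion. It held 242 and 236 reads in KL and 304 and 301 reads in KLG4m/m, a log2 difference of 0.40 (SE 0.094, adjusted p = 0.00854).

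The promoters of the members that had a start site at the same place in RefSeq and in the table are shown first, because the largest rise of the set lies at one of them. Promoter sequences of 5 of the 9 members were matched by symbol in RefSeq (GRCm38.p6). For Apoe and Abca1 a start site lay at the same distance from the end of the gene as in the deposited table. The 250 bases upstream of the start site are given 5′ to 3′, for Apoe from chr7:19699189-19699438 and for Abca1 from chr4:53159896-53160145, both on the minus strand. In Apoe the capitals mark the 43 bases that lie under the table's peak. In Abca1 the peak begins downstream of the start site, outside this window, and the capitals mark matches to short motifs.

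Apoe: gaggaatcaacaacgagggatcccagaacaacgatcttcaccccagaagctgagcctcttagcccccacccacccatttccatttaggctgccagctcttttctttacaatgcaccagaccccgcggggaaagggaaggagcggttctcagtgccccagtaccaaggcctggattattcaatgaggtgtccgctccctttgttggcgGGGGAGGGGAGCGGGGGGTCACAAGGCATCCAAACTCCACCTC

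Abca1: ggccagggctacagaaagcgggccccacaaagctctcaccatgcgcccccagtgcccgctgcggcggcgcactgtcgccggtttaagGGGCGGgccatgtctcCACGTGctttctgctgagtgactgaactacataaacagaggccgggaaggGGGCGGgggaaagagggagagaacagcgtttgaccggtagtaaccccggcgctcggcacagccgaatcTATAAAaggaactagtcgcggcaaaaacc

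Both promoters are rich in G and C, at 57.2% for Apoe and 61.6% for Abca1. Abca1 holds a TATA box (TATAAA) beginning 29 bases upstream of the start, GC boxes (GGGCGG) at 97 and 163 bases and an E-box (CACGTG) at 147 bases, and none of these overlap. At this start site Apoe holds none of these letters, nor CCAAT or AGGTCA, in the window from 250 bases upstream to 50 downstream, searched on both strands. Other Apoe start sites in RefSeq did not match the table and are not shown. The promoter ending at chr7:19698871 holds TATAAA beginning 100 and 96 bases upstream, and the one ending at chr7:19698648 holds none of these motifs. Of 32851 promoter windows of that length, 13.6% hold TATAAA, 35.7% GGGCGG, 7.15% CACGTG, 37.4% CCAAT and 16.3% AGGTCA. A match is a description of the letters and not of a bound factor.

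Over the set, Apoe, Abca1 and Abcg1 rose and Cd36 fell when the reads of each gene's peaks were summed, while Lpl, Lrp1, Vldlr, Scarb1 and Fabp5 did not pass the test. The 3 of 9 genes called higher stand beside 5.38% of all genes in the table, and the 1 of 9 called lower beside 9.63%. At single peaks, 1 of 23 was higher and 3 were lower, beside 3.1% and 5.52% of all peaks. The median log2 difference was 0.05 over the 9 genes and 0.06 over the 23 peaks, and 0.0023 and 0.0077 over all genes and all peaks. Of the 9 genes 5 lay above 0 and 4 below.

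**Figure D1:**
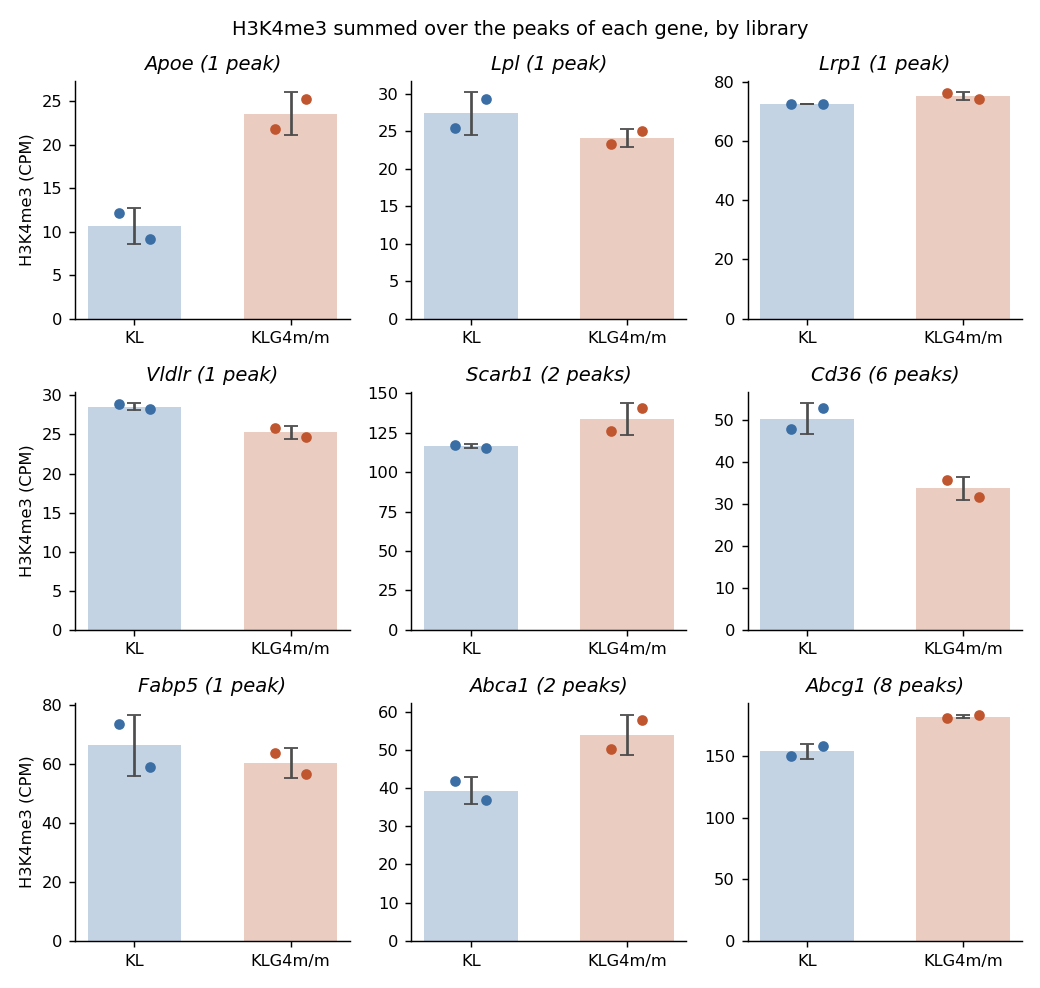
H3K4me3 in CPM, summed over the peaks of each of the 9 genes, in the KL (blue) and KLG4m/m (orange) libraries. Points are libraries, bars are group means and whiskers the SD (n = 2 per group), and each axis starts at 0. Apoe stands at 21.8 and 25.3 CPM in KLG4m/m against 12.1 and 9.21 CPM in KL, Cd36 is lower in both KLG4m/m libraries, and the Fabp5 groups overlap.

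Apoe, the ligand, had 1 peak, which covers its start site (chr7:19432756-19433156 as the table gives it, which is not its position in GRCm38.p6). It held 42 and 32 reads in KL and 75 and 82 reads in KLG4m/m, and the groups did not overlap. The means were 10.6 ± 2.03 and 23.6 ± 2.57 CPM (SD, n = 2), a log2 difference of 1.14 (SE 0.204, edgeR adjusted p = 0.00075). This was a low promoter of the table in level: its mean lay at the 27.2 percentile of the 17073 peaks within 1 kb of a start site. In size of change it stood near the top, since 74 of those 17073 peaks (0.433%) had at least its log2 difference. DESeq2 gave the same size with an adjusted p of 0.0513 for the peak and 0.0237 for the gene. Leaving out KL replicate 1 or 2 gave 1.35 and 0.96.

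The peaks around Apoe lay near or below 0. Over the 6 peaks of other genes within 50 kb, the log2 differences ran from -0.52 to 0.08. Apoc1, the apolipoprotein gene next to Apoe, held 24 and 25 reads in KL and 19 and 17 reads in KLG4m/m, a log2 difference of -0.39 (adjusted p = 0.469). The Nectin2 peak, named here after its value was seen, was lower, with 112 and 101 against 67 and 76 reads and a log2 difference of -0.52 (edgeR adjusted p = 0.0452). No direct test of Apoe against its neighbours was run. Over all 9 genes, 19 neighbouring peaks were listed within 50 kb and 1 was called lower, the one at Nectin2, beside 5.52% of all peaks.

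Lpl, whose product frees fatty acids from triglyceride-rich particles, carried 1 peak 501 bp downstream of its start site. It held 88 and 102 reads in KL and 80 and 81 reads in KLG4m/m. Both KLG4m/m libraries lay below both KL libraries, but the log2 difference of -0.18 (SE 0.16) did not pass the test (edgeR adjusted p = 0.517).

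The receptors Lrp1 and Vldlr were close to level. Lrp1, a large endocytic receptor for Apoe-bearing remnants, held 252 and 252 reads in KL and 262 and 241 reads in KLG4m/m at a peak 305 bp upstream of its start, a log2 difference of 0.05 (SE 0.096, edgeR adjusted p = 0.774). Vldlr, the receptor for very low density lipoprotein, held 100 and 98 reads against 89 and 80, a log2 difference of -0.17 (SE 0.154, edgeR adjusted p = 0.525). For Vldlr both KLG4m/m libraries lay below KL, and neither gene passed the test, which does not show that the groups were equal.

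Scarb1, the HDL receptor, had 2 peaks that differed from each other. Its promoter peak, 120 bp downstream of the start, was among the strongest of the table (98.3 percentile of start-site peaks). It held 392 and 381 reads in KL and 433 and 452 reads in KLG4m/m, higher in both KLG4m/m libraries, with a log2 difference of 0.25 (SE 0.082, edgeR adjusted p = 0.0539). The other lay in intergenic DNA 7195 bp upstream (chr5:125425277-125425677) and held 15 and 20 reads in KL and 2 and 4 reads in KLG4m/m, so that the groups did not overlap.

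The distal Scarb1 peak fell by 2.44 on the log2 scale (SE 0.564, edgeR adjusted p = 0.00618), from 5.04 ± 1.02 to 0.909 ± 0.466 CPM (SD, n = 2). With 2 to 4 reads in KLG4m/m, counting error is a large part of that value. It differed from its gene by -2.64 (edgeR diffSpliceDGE adjusted p = 0.00192), which was the one call among the 18 member peaks of genes with several peaks, beside 1.29% of all peaks so tested. Without KL replicate 2 the fall was -2.22 (adjusted p = 0.0674) and the difference from the gene -2.41 (adjusted p = 0.109). Summed over both peaks Scarb1 was at 0.20 (adjusted p = 0.079). It passed with the promoter peak alone in the gene-level fit (0.26, adjusted p = 0.0349) and with median scaling of the sum (0.29, adjusted p = 0.00705), so the call for the gene depended on these choices.

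Cd36, the fatty acid translocase, had 6 peaks spread over several annotated start sites, all of them weak at 9 to 61 reads. The peak over one start site (chr5:18054552-18054952) held 48 and 38 reads in KL and 17 and 18 reads in KLG4m/m. The one 1121 bp downstream of that start held 39 and 61 against 27 and 23 reads. In both, each KLG4m/m library lay below each KL library.

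The Cd36 start-site peak fell by 1.23 on the log2 scale (SE 0.278, edgeR adjusted p = 0.00581) and the downstream one by 0.94 (SE 0.261, adjusted p = 0.0231). The peak 708 bp upstream of a neighbouring start held 27 and 31 against 24 and 15 reads, with a log2 difference of -0.51 (edgeR adjusted p = 0.299). At the remaining 3 peaks the groups overlapped, and their log2 differences were -0.24, -0.12 and 0.16. None of the 6 differed from the rest of the gene in the within-gene test, the nearest to it being the peak 790 bp upstream of another start (adjusted p = 0.241), so no difference between the start sites of Cd36 was detected.

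Summed over its peaks, Cd36 stood at 47.9 and 53.0 CPM in KL and 35.7 and 31.8 CPM in KLG4m/m, a fall with a log2 difference of -0.58 (SE 0.134, edgeR adjusted p = 0.000908). The start-site call was at an adjusted p of 0.0516 without KL replicate 1, and the downstream peak was at -0.58 (adjusted p = 0.341) and the sum at -0.49 (adjusted p = 0.0549) without KL replicate 2.

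**Figure D2:**
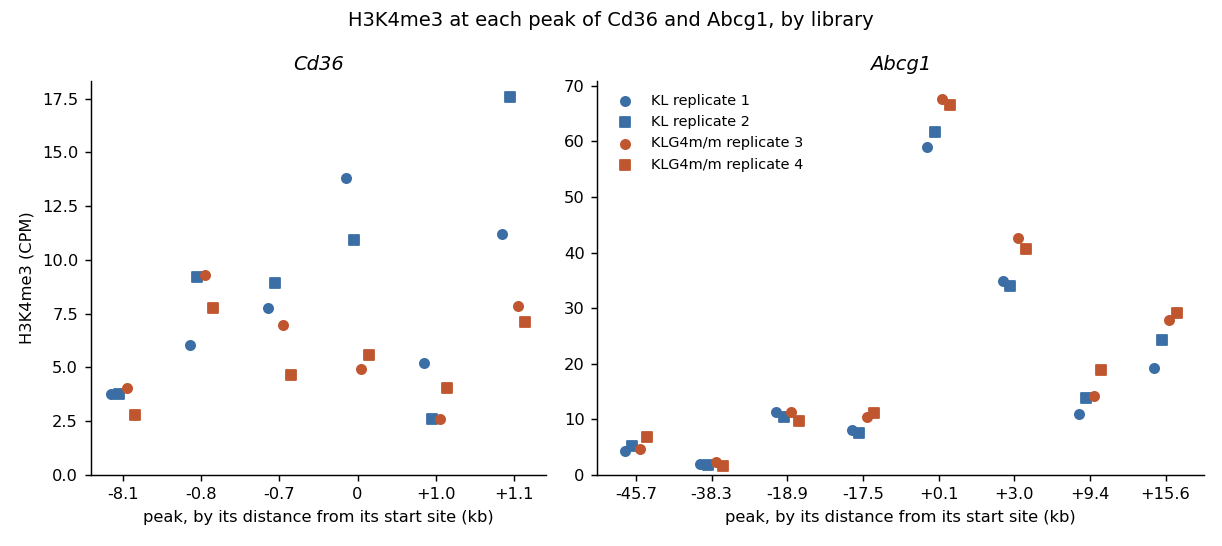
H3K4me3 in CPM at each peak of Cd36 (left) and Abcg1 (right), ordered by signed distance in kb from the start site the table assigns to it. Each symbol is 1 library, blue for KL and orange for KLG4m/m. For Cd36 the KLG4m/m libraries lie lower at 0 bp and 1121 bp downstream, whereas for Abcg1 they lie slightly higher at the promoter and at each of the 3 intronic peaks.

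Fabp5, the carrier of fatty acids in the cytosol of epithelial cells and macrophages, had 1 peak over its start site. It held 256 and 205 reads in KL and 220 and 184 reads in KLG4m/m, so the groups overlapped. The log2 difference was -0.13 (SE 0.114, edgeR adjusted p = 0.502), and it turned to 0.03 without KL replicate 1, the highest library.

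The exporters rose by small steps at the level of the gene. Abca1, which loads cholesterol onto lipid-poor apolipoprotein A-I, had a peak 533 bp downstream of its start with 129 and 111 reads in KL and 139 and 161 reads in KLG4m/m. A weaker peak in intron 5 (chr4:53121661-53122061) held 16 and 17 reads against 34 and 26. At both peaks each KLG4m/m library lay above each KL library, a separation whose share over all peaks was not counted.

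Neither Abca1 peak passed alone, with log2 differences of 0.38 (SE 0.139, edgeR adjusted p = 0.0878) and 0.91 (SE 0.304, adjusted p = 0.0584). Their sum did, at 41.8 and 36.8 CPM in KL and 50.3 and 57.7 CPM in KLG4m/m, a log2 difference of 0.45 (SE 0.128, edgeR adjusted p = 0.00723). Without KL replicate 2 the sum stood at 0.38 (adjusted p = 0.145), and with the promoter peak alone at 0.38 (adjusted p = 0.0639).

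Abcg1, which passes cholesterol to mature HDL, had 8 peaks: 4 in intergenic DNA upstream, 1 at the promoter and 3 in its first introns. The promoter peak held 205 and 214 reads in KL and 233 and 215 reads in KLG4m/m, the peak 3004 bp downstream 121 and 118 against 147 and 131, and the peak 15584 bp downstream 67 and 84 against 96 and 94. On the CPM scale each KLG4m/m library lay above each KL library at these 3 peaks, at the intron peak 9361 bp downstream and at the intergenic peak 17519 bp upstream, and the groups overlapped at the other 3. How often peaks of the whole table separate in this way was not counted.

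No single Abcg1 peak passed the edgeR test after adjustment. Of the 8 peaks 2 had an unadjusted p under 0.05, beside 8738 of all 35486 peaks. The log2 differences were 0.15, 0.27, 0.41 and 0.39 from the promoter to the last intron peak and 0.47 at the peak 17519 bp upstream. The sum of the 8 peaks stood at 149.9 and 158.3 CPM in KL and 181.3 and 183.5 CPM in KLG4m/m, a log2 difference of 0.24 (SE 0.069, edgeR adjusted p = 0.00807). With the promoter peak alone the difference was 0.16 (adjusted p = 0.36), and without KL replicate 1 the sum was at 0.21 (adjusted p = 0.113). The call for Abcg1 thus rested on reads added over its peaks and not on its promoter.

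**Figure D3:**
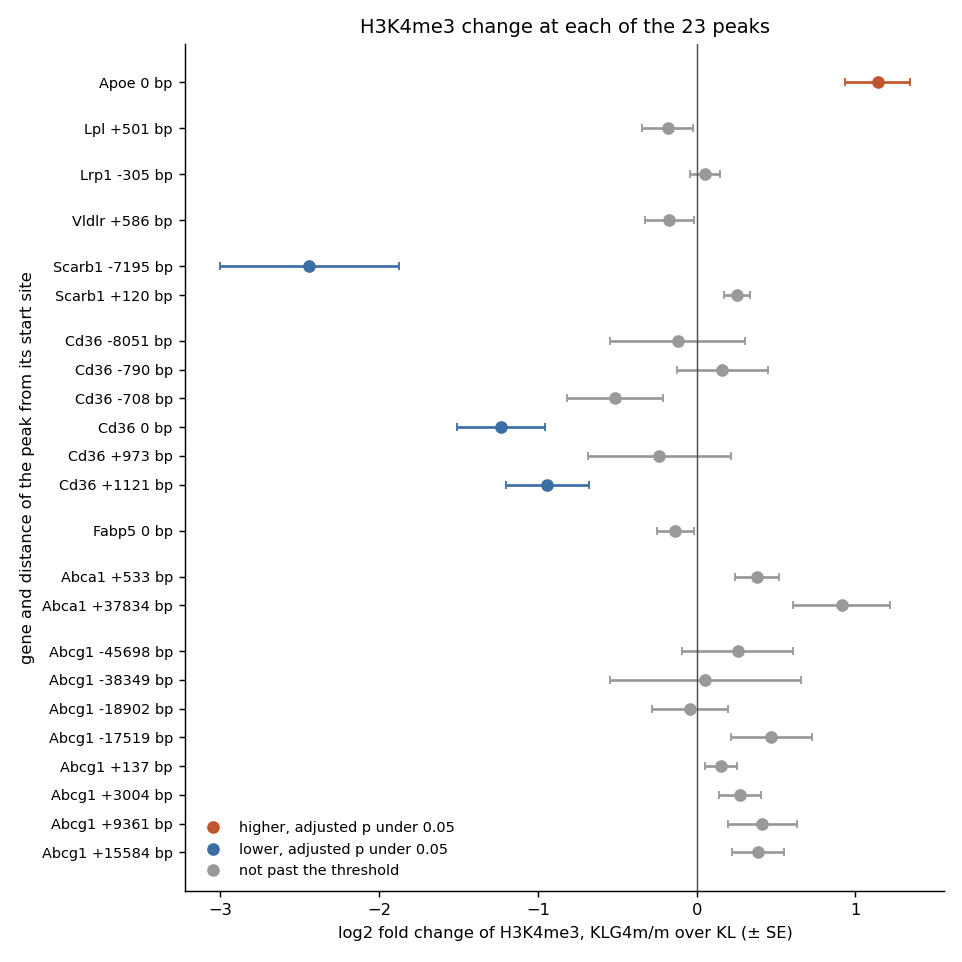
Log2 fold change of H3K4me3 (KLG4m/m over KL) with its SE at each of the 23 peaks, named by gene and by distance in bp from the start site. Orange and blue points passed the edgeR test (adjusted p under 0.05) and grey points did not. Apoe at 1.14 is the one peak called higher, and the distal Scarb1 peak at -2.44 lies farthest below 0, with the widest SE of the 4 calls.

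With either KLG4m/m library left out, edgeR passed 0 peaks and 0 genes of the whole table, at 5486 and 5178 peaks with an unadjusted p under 0.05, as its prior degrees of freedom fell from 24.5 to 2.63. That loss held for every feature and says nothing about the members. Those degrees of freedom are of the peak fit, and in the gene fit they fell from 127 to 4.33. With either KL library left out they were infinite in both fits. Adjusted p-values given for those fits thus lean on a spread shared over all features and are less guarded. The 4 called peaks and the 4 called genes kept their direction when either KLG4m/m library was left out, with the Apoe peak at 1.25 and 1.03. DESeq2 called 0 of the 14 member peaks to which it gave an adjusted p, and it called 1 of the 9 genes, Apoe. Its unadjusted p was under 0.05 at 4 of the 23 peaks, beside 2735 of all 35486 peaks.

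The wider pathway is given by 101 other genes in 7 lists: apolipoproteins, lipases and their regulators, lipoprotein and scavenger receptors, fatty acid binding and transport, sterol and phospholipid exporters, lipoprotein assembly, and lysosomal sterol traffic. A peak was listed for 76 of them, of which 2 were higher and 9 lower, beside 5.38% and 9.63% of all genes. Their median log2 difference was -0.0030, and 38 lay above 0 and 38 below. The split of calls depended on scaling: with each library centred on its median, 10 were higher and 4 lower. Over all genes the split was 1122 higher and 2010 lower with TMM and 2877 and 1421 with that scaling, which put the median of all genes at 0.09. All 4 called members kept their direction and their call under it. That upward shift favours the calls of Apoe, Abca1 and Abcg1, and the prior degrees of freedom of that gene fit were infinite. Their kept calls thus add little.

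Among the receptors, Sorl1, a sorting receptor related to Lrp1, rose from 226 and 254 to 313 and 299 reads, with a log2 difference of 0.41 (edgeR adjusted p = 0.0013) over its 4 peaks and 0.24 (adjusted p = 0.289) at the peak nearest its start alone. Other receptors were lower: Lrp2 (megalin) at -0.44 and Colec12, a scavenger receptor with a collectin domain, at -0.88, from 52 and 59 to 29 and 29 reads (edgeR adjusted p = 0.00504). Lrp8, the receptor nearest to Vldlr, was at 0.22 (adjusted p = 0.0833).

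Among the genes of lipid release and uptake, Angptl8, an inhibitor of Lpl, fell by 0.85, from 48 and 29 to 23 and 18 reads (edgeR adjusted p = 0.0309). Fabp1, the liver-type fatty acid binding protein, fell by 1.27, from 17 and 21 to 4 and 11 reads (adjusted p = 0.0387). Slc27a2, a fatty acid transporter with acyl-CoA synthetase activity, fell by 0.51 (adjusted p = 0.0313). The Fabp1 value in KLG4m/m rests on few reads.

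In the exporter list 1 of 10 genes with a peak was called lower, beside 9.63% of all genes. Abcc1, an exporter of glutathione conjugates and leukotrienes, fell by 0.47, from 216 and 218 to 176 and 126 reads (edgeR adjusted p = 0.00283). Its KLG4m/m libraries differed from each other, and both lay below KL. Over the list 2 genes lay above 0 and 8 below, with a median log2 difference of -0.36. Abcg4, the closest relative of Abcg1 in the list, was at -0.01 (adjusted p = 0.976), and Abca7, related to Abca1, at 0.09 (adjusted p = 0.657). The other Abca genes of the list lay below 0, from -0.79 (Abca9) to -0.20 (Abca2), and were not called.

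Of the genes of assembly and storage, Mia2 and Mia3, which load bulky cargo such as lipoproteins at the exit of the endoplasmic reticulum, fell by 0.29 (adjusted p = 0.0214) and 0.26 (adjusted p = 0.0135). Soat2, which esterifies cholesterol, rose by 0.37 (adjusted p = 0.0229), and Osbpl2, an oxysterol-binding protein relative, fell by 0.32 (edgeR adjusted p = 0.0343). At the peak nearest the start alone, Mia2 was at -0.72 (adjusted p = 0.049), Mia3 at -0.63 (adjusted p = 0.000208) and Osbpl2 at -0.57 (adjusted p = 0.00197). The calls for Lrp2 (-0.54, adjusted p = 0.0588), Fabp1 (-1.27, adjusted p = 0.0553), Slc27a2 (-0.52, adjusted p = 0.0666) and Soat2 (0.34, adjusted p = 0.128) were lost in that fit. DESeq2 called 0 of the pathway genes. Its unadjusted p was under 0.05 for 6 of the 76 with a peak, beside 2501 of all 20871 genes. Of the 11 called genes all but Abcc1 lost the call with 1 or the other KL library left out. Abcc1 was at -0.47 without KL replicate 1 and at -0.45 without KL replicate 2. Angptl8 was at -0.44 (adjusted p = 0.516) without KL replicate 1, and Lrp2 was at -0.31 (adjusted p = 0.397) without KL replicate 2. Without KLG4m/m replicate 3 Fabp1 was at -0.68 and Osbpl2 at -0.18, and without KLG4m/m replicate 4 Abcc1 was at -0.29, Mia3 at -0.14 and Fabp1 at -2.20.

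**Figure D4:**
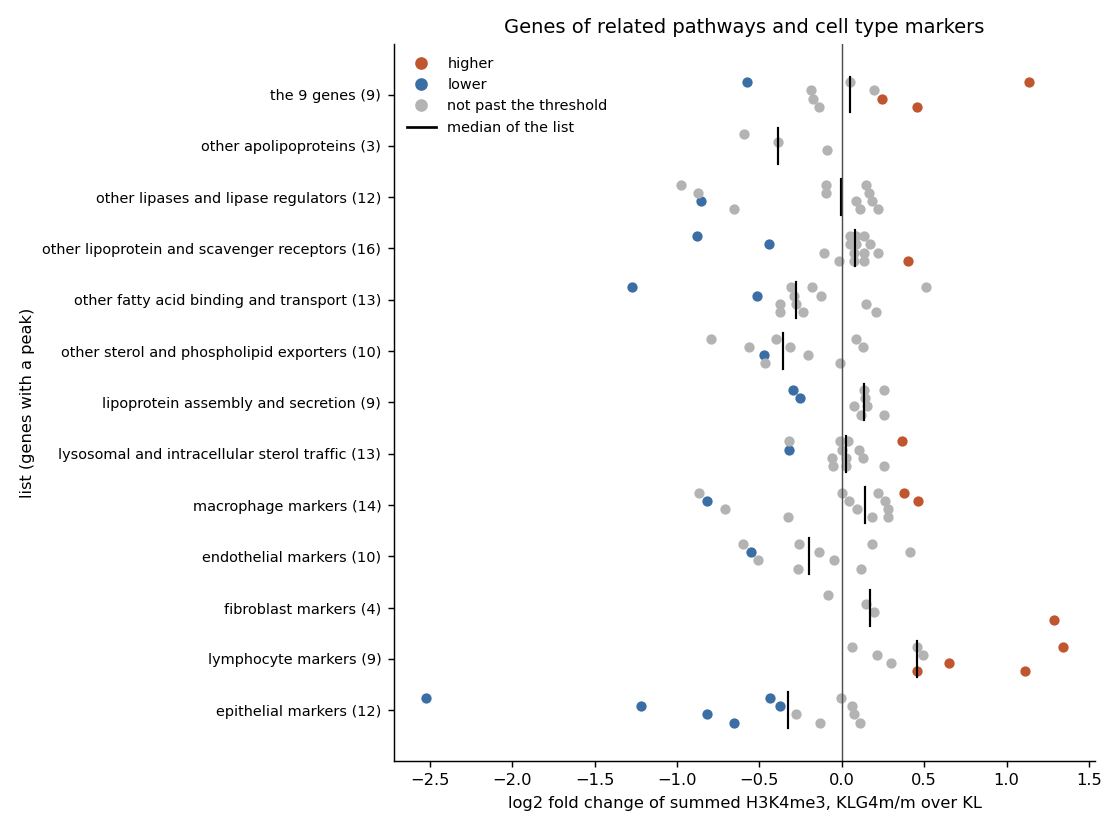
Log2 fold change of summed H3K4me3 (KLG4m/m over KL) for the 9 genes, for each list of related genes and for cell type markers, with the number of genes that have a peak in parentheses. Orange and blue points passed the edgeR test, grey points did not, and a black line marks the median of each list. The 9 genes spread to both sides of 0 and the lymphocyte markers lie above 0. Of the 12 epithelial markers, which include alveolar type 2 genes, 6 are called lower.

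Apoe, Cd36, Abca1 and Abcg1 are also used by macrophages, so marker genes were read beside them. In bulk cells, a change in the share of a cell type and a change per cell cannot be told apart. Of 19 macrophage markers 14 had a peak, 10 of them above 0 and 4 below. Called higher were 2 (Adgre1 at 0.46 and Spi1 at 0.38) and lower 1 (Chil3 at -0.82), beside 5.38% and 9.63% of all genes. Mrc1 (-0.33), Mertk (-0.71) and Ear2 (-0.87) were below 0 and not called. The summed level was 470.3 and 471.6 CPM in KL and 540.8 and 543.1 CPM in KLG4m/m. Within that sum Spi1 alone went from a mean of 112.7 to 146.6 CPM. Marco, C1qa, C1qb, C1qc and Tyrobp had no listed peak. Ptprc, which encodes CD45 and against which the cells were sorted, held 189 and 207 reads in KL and 241 and 204 in KLG4m/m. Its log2 difference was 0.22 (edgeR adjusted p = 0.163) and that of Csf1r 0.28 (adjusted p = 0.114), neither of them called.

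Markers of other cell types were read in the same way. Of 9 lymphocyte markers with a peak 4 were higher, beside 5.38% of all genes. Their summed levels were 198.4 and 169.9 CPM against 249.3 and 253.2 CPM. Of 12 epithelial and alveolar type 2 markers with a peak 6 were lower, beside 9.63% of all genes. These were Epcam (-0.82) and Cdh1 (-0.38), and the alveolar type 2 genes Sftpb (-0.65), Sftpa1 (-1.22), Lamp3 (-2.52) and Etv5 (-0.43). Not called were Krt8 (-0.28), Nkx2-1 (-0.13), Cldn4 (-0.0043), Cldn7 (0.06), Krt18 (0.07) and Krt19 (0.11). The sums over the list were 548.2 and 559.7 CPM against 443.8 and 448.5 CPM, and Sftpc had no listed peak. Of 10 endothelial markers 3 lay above 0 and 7 below, and 1 was called lower (Tek at -0.55), beside 9.63% of all genes. Cdh5 was at -0.51 (edgeR adjusted p = 0.0692) and Pecam1 at 0.19 (adjusted p = 0.222), neither of them called. Of 4 fibroblast markers with a peak 1 was higher, beside 5.38% of all genes. The part of these marker values in the values of the 9 genes was not tested.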

How the data were processed

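H3K4me3 CUT&Tag libraries (cleaved with pAG-MNase, per the labels) of sorted lung tumor cells, 2 from each genotype, were used. The authors trimmed reads (Trim Galore 0.6.10), mapped them (BWA 0.7.15), removed mitochondrial, poorly mapped and duplicate reads (Picard 2.17.3), and called and annotated peaks (MACS2 2.2.7.1, HOMER 4.11.1), with versions from the submitters' processing notes. The deposited table holds whole read counts per peak and library, not normalized. Its CPM columns and the authors' comparison (fold changes and p-values) were not used, and the methods name an Ensembl mouse genome for the mapping, but positions such as that of Apoe are not those of GRCm38.p6, and no build was assigned to them here. A uniform change of the mark cannot be seen in values scaled to reads in peaks.

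Counts were tested with edgeR 4.0.16 (quasi-likelihood, TMM, no covariate, no filter) in R 4.3.3 over all 35486 peaks and, summed by gene, over 20871 genes. Peaks were compared within genes with diffSpliceDGE. The alternatives were DESeq2 1.42.0, RLE and median scaling, a mean of at least 10 CPM, limma 3.58.1 on log2(CPM + 1), the peak nearest the start and leaving out each library. The scripts were tested on simulated data. Depth was 3244495 to 3463731 reads in peaks, so a peak under about 20 reads carries a large counting error. Libraries of a group differed by more than sampling noise (chi-square per degree of freedom 1.13 and 1.23, against 2.37 to 2.80 between groups). The members and lists were chosen with earlier results of these data known. The rule named all member peaks, every called gene of the pathway lists and defining cell type markers. Other pathway genes (Lrp8, Abcg4, Abca7, Apoc1) and some markers were named after their values were seen. Some items are not reported here.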

Additional observations from a re-analysis of the deposited data

How the results depend on the processing

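No paired analysis was possible because the KL (1 and 2) and KLG4m/m (3 and 4) H3K4me3 libraries share no replicate number. Of 395 single values recomputed, 289 kept direction and side of the threshold, 91 lost the call, 4 gained it and 11 changed sign. Only values called in the main fit could lose a call, so the 395 are not the base of the 91. Among the summed members, Apoe kept its call in 8 of 10 alternatives, Cd36 in 6, and Abca1 and Abcg1 in 5 each. The member counts of 1 peak higher and 3 lower became 0 and 0 with DESeq2, 2 higher with median scaling and 1 lower among peaks of at least 10 CPM, where fewer member peaks are tested. DESeq2 left 1 gene higher and 0 lower (4 of 9 with an unadjusted p under 0.05), and of the other pathway genes 0 higher and 0 lower (6 with an unadjusted p under 0.05), against 10 and 4 with median scaling. The within-gene count of 1 became 2 with limma's diffSplice and 0 above 10 CPM. Over the whole table DESeq2 called 33 peaks higher and 250 lower, and 122 and 337 genes. It gave an unadjusted p under 0.05 to 2735 of 35486 peaks and 2501 of 20871 genes.

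Leaving out 1 library gave 0 to 1 member peaks higher and 0 to 2 lower, 0 to 2 genes higher and 0 to 1 lower, 0 to 1 pathway genes higher and 0 to 3 lower, and 0 to 1 within-gene calls. The zeros came without a KLG4m/m library, except that the Cd36 sum and the within-gene call were also lost without KL replicate 2. Without a KLG4m/m library the lone sample is assumed to vary like the other group. The prior degrees of freedom of edgeR were then 2.63 against 24.5 with all libraries. Those degrees of freedom are of the peak fit, and in the gene fit they were 4.33 against 127. Values that changed sign, none of them called, ranged from -0.11 to 0.50 (Cd36 at -790 bp), -0.65 to 0.34 (Cd36 at 973 bp), -0.42 to 0.12 (Cd36 at -8051 bp), -0.28 to 0.034 (Fabp5 peak), -0.28 to 0.038 (Fabp5 sum), -0.17 to 0.069 (Abcg1 at -18902 bp), -0.27 to 0.31 (Abcg1 at -38349 bp) and -0.031 to 0.51 (Abcg1 at -45698 bp). The depth of 2 libraries per group limits peaks of few reads most.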
